A study of Mus musculus with 22 samples.

Results

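Among the 20129 genes that had a RefSeq-identified probe on the arrays, 7 genes for transcription factors of the ventral forebrain and of interneuron precursors were followed through the brain, namely Dlx1, Dlx2, Dlx5, Dlx6, Sp8, Sp9 and Nkx2-1. The 7 genes were chosen by name, and each was read from its RefSeq-identified probe with the highest median level. The 7 genes had 8 such probes, since Sp8 had 2. All 7 were measured on at least 1 array of each series, and Sp8 was the only one measured well above background on all 22 arrays.

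The samples were 22 brain fractions from 3 males of the inbred strain C57BL/6J, for which the labels name no transgene or treatment. Transcriptome Tomography slices a brain along one axis, pools the slices of each slab into a fraction and measures the RNA of that fraction on a microarray. There were 10 coronal fractions of mouse 1, 6 horizontal fractions of another mouse and 6 sagittal fractions of the last mouse. The titles placed the mice at 7 days after birth and the age field at 3 days. Each fraction was 1 array, so no value has a replicate, the number of arrays limits the precision, and mouse, axis and, in large part, slide cannot be told apart. Coronal fraction 10 pooled slabs 10 and 11, sagittal fraction 1 pooled slabs 1 and 2, and sagittal fraction 6 pooled slabs 7 to 9. The probes well above background numbered 29605 to 41965 per array, of 55600. For 7 arrays (coronal fractions 1 and 2, horizontal fractions 1 to 3, and sagittal fractions 1 and 3) the slope of the spike-in controls lay outside the range that the extraction software accepts.

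Dlx genes encode homeodomain transcription factors that act in a cascade in the ganglionic eminences of the embryonic ventral forebrain and drive progenitors towards GABAergic neurons. Dlx1 and Dlx2 act first, and Dlx5 and Dlx6 lie downstream of them. Sp8 and Sp9 encode zinc-finger factors of precursors from the lateral and caudal eminences, many of which migrate along the rostral migratory stream to the olfactory bulb, a migration that continues after birth. Nkx2-1 encodes a homeodomain factor of the medial eminence, the preoptic area and the hypothalamus, and is switched off in most cortical interneurons as they migrate. The genes lie in linked pairs, with Dlx1 and Dlx2 on mouse chromosome 2 and Dlx5 and Dlx6 on chromosome 6. Sp9 also lies on chromosome 2, and Sp8 and Nkx2-1 lie on chromosome 12.

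The windows just upstream of the transcript start are shown for the pair with the highest correlation over the 22 fractions (Dlx1 and Dlx2), for a zinc-finger member also highest in coronal fraction 10 (Sp9) and for the member that took another course (Nkx2-1). The sequences come from RefSeq on GRCm38.p6, each with 250 bases before the start, 5′ to 3′ along the gene. Capitals mark GGGCGG or its reverse complement, the GC box that Sp factors are known to bind. The Dlx1 window is chr2:71529195-71529444 on the plus strand, and the Dlx2 window is chr2:71546755-71547004 on the minus strand. The Sp9 window is chr2:73271676-73271925 on the plus strand, and the Nkx2-1 window is chr12:56536909-56537158 on the minus strand.
Dlx1: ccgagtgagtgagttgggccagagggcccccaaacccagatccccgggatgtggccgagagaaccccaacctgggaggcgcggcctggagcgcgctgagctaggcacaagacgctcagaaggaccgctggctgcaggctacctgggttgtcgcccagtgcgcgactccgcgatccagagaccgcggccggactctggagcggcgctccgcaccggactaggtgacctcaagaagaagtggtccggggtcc
Dlx2: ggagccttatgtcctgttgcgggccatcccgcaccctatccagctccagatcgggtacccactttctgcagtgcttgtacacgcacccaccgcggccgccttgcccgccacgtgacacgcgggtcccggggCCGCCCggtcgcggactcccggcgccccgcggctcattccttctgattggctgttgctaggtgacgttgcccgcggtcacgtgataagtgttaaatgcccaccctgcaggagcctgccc
Sp9: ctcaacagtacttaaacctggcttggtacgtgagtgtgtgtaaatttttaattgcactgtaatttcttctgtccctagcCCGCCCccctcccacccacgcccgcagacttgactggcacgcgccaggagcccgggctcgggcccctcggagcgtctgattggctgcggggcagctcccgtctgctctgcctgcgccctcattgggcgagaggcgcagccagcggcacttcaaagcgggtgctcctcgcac
Nkx2-1: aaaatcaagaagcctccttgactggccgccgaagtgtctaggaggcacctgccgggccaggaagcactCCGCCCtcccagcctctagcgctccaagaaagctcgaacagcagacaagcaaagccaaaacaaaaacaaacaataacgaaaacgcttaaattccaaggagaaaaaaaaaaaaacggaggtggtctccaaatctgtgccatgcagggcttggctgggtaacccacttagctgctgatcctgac
The reference table held windows for 5 of the 7 genes, 7 windows in all because Sp8 had 3. The GC box was found on either strand in 4 of these 7 windows, and 32.7% of the 32851 windows of this length in the table held it. The homeodomain core TAATTA, which is its own reverse complement, was found in 1 of the 7 windows, one of Sp8, against 4.84% of all windows. The Nkx2 core CAAGTG was found on either strand in 1 window, also of Sp8, against 11.6% of all. The letters TATAAA were found on either strand in 1 window, of Sp8 as well, against 12.4%. GC content was 68% for Dlx1, 66.4% for Dlx2, 62.4% for Sp9 and 50.8% for Nkx2-1, and the median over all windows was 52.4%. No motif was shared by the Dlx1 and Dlx2 windows.

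Levels are log2 processed intensities from which the array's own 75th percentile was subtracted, so 0 is the level below which 75% of the probes on that array lay. A level is compared here only with the same probe in other fractions. In these bulk fractions, fewer cells of a type and less RNA per cell cannot be told apart. Along the coronal series 6 of the 7 genes were highest in fraction 10, the last, and low or not well above background in fractions 1 to 3. Nkx2-1 was highest in the middle of the series. Position along the coronal series was tested in limma by an F test of a linear and a quadratic term, adjusted over 39621 probes, in which the error is how far single arrays lay from the curve, with no difference between animals in it. An adjusted p printed beside a straight-line change or a gene is that of this F test of position, and not of the linear term, unless the term is named. All 7 genes passed the threshold of 0.05, where 19.8% of all probes tested did.

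**Figure D1:**
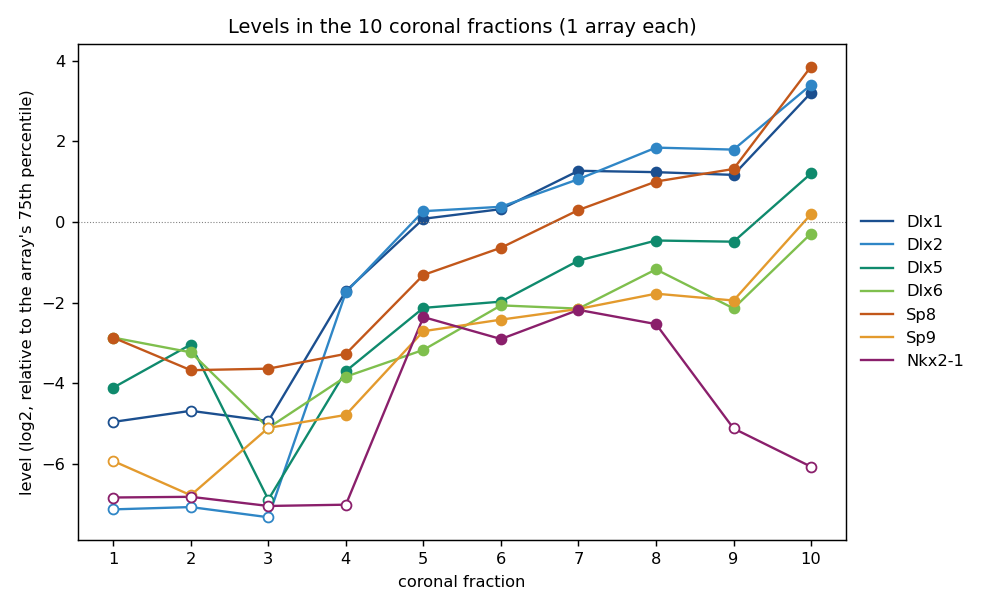
Level of each of the 7 genes (log2, relative to the array's 75th percentile) against coronal fraction, 1 array per fraction, with filled points well above background and open points not. The lines of 6 genes reach their highest point in fraction 10, and Nkx2-1 is filled in fractions 5 to 8 alone.

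Dlx1 and Dlx2, the upstream pair of the cascade, were both highest in coronal fraction 10 and not well above background in fractions 1 to 3. The level of Dlx1 ranged over the 10 coronal fractions from -4.96 in fraction 1 to 3.20 in fraction 10, with a median of 0.20. It was -1.71 in fraction 4 and lay between 0.08 and 1.27 in fractions 5 to 9. Fraction 10 was thus at least 282-fold above the background bound of fraction 3, and 3.82-fold above fraction 7, the second highest. Dlx2 ranged from -7.32 in fraction 3 to 3.40 in fraction 10, with a median of 0.32. It was -1.74 in fraction 4 and was 1.84 in fraction 8, the second highest. The rise of Dlx2 came to at least 339-fold, and fraction 10 was 2.95-fold above fraction 8. The fitted straight-line change over the series was 8.63 ± 0.77 (SE, log2; position adjusted p = 0.000135) for Dlx1 and 11.76 ± 1.09 (SE, log2; position adjusted p = 0.000135) for Dlx2. With normexp background correction, which models the background of each array in place of the extraction software's subtraction, the changes were smaller, 5.55 for Dlx1 and 6.58 for Dlx2.

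Dlx5 and Dlx6, the downstream pair, were lowest in fraction 3. Their levels in fractions 1 and 2 come from the only coronal arrays with a spike-in slope out of range (0.867 and 0.815), which had 37496 and 40156 probes well above background against 31976 in fraction 3, and the part of this in the higher levels there was not tested. The level of Dlx5 was -4.11 in fraction 1, -3.04 in fraction 2, not well above background in fraction 3 and -3.70 in fraction 4, and it then rose to 1.20 in fraction 10, with a median of -2.05. The step from fraction 8 (-0.46) to fraction 10 was 3.17-fold, and fraction 10 was at least 73.9-fold above the bound of fraction 3. Dlx6 was -2.87 in fraction 1, -3.23 in fraction 2 and -3.84 in fraction 4, was not well above background in fraction 3, and reached -0.29 in fraction 10, with a median of -2.51. Its step to fraction 10 was 1.85-fold from fraction 8 (-1.18), and its rise was at least 26.3-fold. The straight-line change was 5.97 ± 0.99 (SE, log2; position adjusted p = 0.00380) for Dlx5 and 3.21 ± 0.63 (SE, log2; position adjusted p = 0.00681) for Dlx6. It was 3.20 and 1.62 with normexp background correction, and among the arrays with a spike-in slope in range, which leave out fractions 1 and 2, it was 8.50 and 5.23. With slide as a block it was 5.79 for Dlx6. Both calls were lost in fits of the coronal arrays alone (adjusted p = 0.0728 for Dlx5 and 0.0908 for Dlx6), and that of Dlx6 also without the fractions that pool slabs (adjusted p = 0.0797).

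Sp8 and Sp9, the zinc-finger pair, were also highest in fraction 10. Sp8 was well above background in every coronal fraction, from -3.68 in fraction 2 through -3.27 in fraction 4, -1.31 in fraction 5 and -0.64 in fraction 6 to 1.31 in fraction 9 and 3.85 in fraction 10. The step from fraction 9 to fraction 10 was 5.82-fold, and the whole rise was 185-fold. Of the linear processed level of Sp8 summed over the coronal series, 66.9% lay in fraction 10, where an even spread would put 10%. The other RefSeq probe of Sp8 had a Pearson r of 0.91 with the first over the 10 coronal fractions, ranged from -5.50 to -0.90, went from -2.22 in fraction 9 to -0.90 in fraction 10, and had a straight-line change of 3.93 ± 0.58 (SE, log2; position adjusted p = 0.00215), so both probes rose, by different amounts. Sp9 was not well above background in fractions 1 to 3, was -4.78 in fraction 4, lay between -2.71 and -1.78 in fractions 5 to 9 and was 0.19 in fraction 10. That was 3.92-fold above fraction 8 and at least 36.7-fold above the bound of fraction 3. The straight-line change was 7.34 ± 0.69 (SE, log2; position adjusted p = 0.000146) for Sp8 and 6.38 ± 0.59 (SE, log2; position adjusted p = 0.000139) for Sp9. With normexp background correction it was 5.29 for Sp8 and 2.21 for Sp9, and with values raised to the background bound that of Sp9 was 5.01.

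Nkx2-1 was measured in a block of 4 coronal fractions. Its level was -2.36 in fraction 5, -2.90 in fraction 6, -2.18 in fraction 7 and -2.53 in fraction 8, and it was not well above background in fractions 1 to 4, 9 and 10. The probe was spotted 10 times, and after outlier spots were left out every remaining spot was well above background in fractions 5 to 8 and no spot was in the other 6. Fraction 7 was at least 8.28-fold above the bound of fraction 4. The call for Nkx2-1 (adjusted p = 0.0243) came from an F test of both terms. Neither passed on its own, with a quadratic term of -13.96 ± 4.09 (SE, log2; adjusted p of this term alone = 0.0517) beside a straight-line change of 2.94 ± 1.18 (SE, log2; adjusted p of this term alone = 0.117). The size of the quadratic term depended on the processing, being -7.73 with values raised to the background bound, -2.25 with normexp background correction, -4.61 with slide as a block and -29.23 among the arrays with a spike-in slope in range, and it was 1.16 on slide 1 alone. The call was lost under several settings, among them values raised to the background bound (adjusted p = 0.0690), slide as a block (adjusted p = 0.0510), and each of the fits without coronal fraction 2, 6 or 7 (adjusted p = 0.0578, 0.0567 and 0.0601).

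The slides were not spread evenly over the fractions. Coronal fractions 9 and 10 shared a slide with the sagittal series, fraction 2 was on another slide, and the other 7 coronal fractions were on slide 1. With slide as a block, 6 of the 7 genes passed the threshold, at adjusted p-values between 0.00385 for Sp9 and 0.0304 for Dlx5, where 4.03% of all probes passed. Among the 7 arrays of slide 1 alone, which leave out fraction 10, Dlx1 (adjusted p = 0.0444), Dlx2 (0.0468), Sp8 (0.0390) and Sp9 (0.0390) passed, and Dlx5 (0.100), Dlx6 (0.0833) and Nkx2-1 (0.106) did not, where 4018 of all 39621 probes passed. The rise from fraction 3 to fraction 8 of Dlx1, Dlx2, Sp8 and Sp9 was thus seen within 1 slide.

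The course of the other 6 genes was compared with that of Nkx2-1 by subtracting the Nkx2-1 level from each array. Against Nkx2-1, the coronal straight-line change was larger by 8.82 ± 1.34 (SE, log2) for Dlx2, 5.69 ± 1.09 for Dlx1, 4.39 ± 0.94 for Sp8, 3.44 ± 1.07 for Sp9 and 3.03 ± 1.04 for Dlx5, and by 0.27 ± 0.96 for Dlx6. These sizes rest in part on values of Nkx2-1 that were not well above background, in 6 of the 10 coronal fractions. With values raised to the background bound the differences were 7.80 ± 0.88 (SE, log2) for Dlx2, 7.29 ± 0.86 for Dlx1, 6.07 ± 0.72 for Sp8, 3.74 ± 0.66 for Sp9, 4.18 ± 0.68 for Dlx5 and 1.92 ± 0.64 for Dlx6. As measured, the quadratic term was larger than that of Nkx2-1 by 4.37 ± 4.66 (SE, log2) for Dlx2 up to 19.62 ± 3.27 for Sp8, and by 18.40 ± 3.32 for Dlx6. An F test of both terms with 13 residual degrees of freedom gave an adjusted p of 0.0112 for all 6 genes. Since 96.2% of all probes differed from Nkx2-1 by the same test, the sizes and not the count describe the 6 genes. With the raised values the adjusted p lay between 0.00565 and 0.0387.

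Markers of brain regions were read on the same arrays to place the fractions. Of 5 markers of olfactory bulb projection neurons, 4 were highest in coronal fraction 10. Tbx21, a T-box factor of mitral and tufted cells, reached 2.87 there. Of 7 hindbrain markers, most of them Hox genes, 6 were highest in fraction 1. Of 8 hypothalamus markers tested, 5 were highest in fraction 6, and 6 of 7 striatal markers were highest in fraction 8. The median share of the summed coronal level that fell in fraction 10 was 75.1% for the olfactory bulb markers, 46.9% for the 7 genes, 8.1% for the 7 neocortex markers and 4.53% for the striatal markers, against 9.5% for all 16691 genes tested. By gene the share was 48.7% for Dlx1, 46.9% for Dlx2, 46.0% for Dlx5, 34.1% for Dlx6, 66.9% for Sp8, 48.7% for Sp9 and 1.86% for Nkx2-1. Omp, a marker of olfactory sensory neurons, was also highest in fraction 10, at 2.40, and endothelial markers had their lowest median there (1.69). The part of the marked cell types in the course of the 7 genes was not tested.

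**Figure D2:**
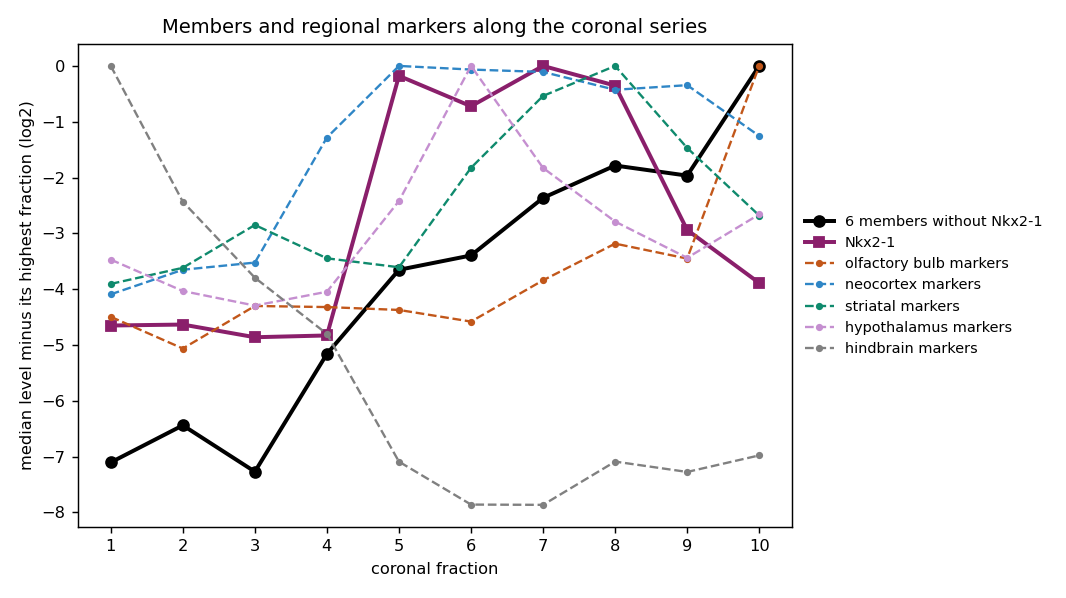
Median level of a group minus that of its highest fraction (log2) against coronal fraction, for 6 genes of the set (black), Nkx2-1 (purple) and 5 lists of regional markers (dashed). The 6 genes and the olfactory bulb markers share their highest fraction, 10, but the 6 genes already climb from fraction 4. Nkx2-1 stands high in fractions 5 to 8, among which the neocortex (5), hypothalamus (6) and striatal (8) markers have their highest median.

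Along the horizontal series the 4 Dlx genes spanned 2.30-fold to 2.84-fold between fractions, Sp8 and Sp9 spanned more, and Nkx2-1 spanned at least 9.94-fold. Neocortex markers were highest in horizontal fraction 1 (5 of 7) and hypothalamus markers in fraction 6 (5 of 8). Position passed the threshold for 2 of the 7 genes, where 6.57% of all probes passed. Nkx2-1 was not well above background in fractions 1 to 3 and was -3.92 in fraction 4, -2.34 in fraction 5 and -1.59 in fraction 6. Its highest fraction was thus the last, at least 9.94-fold above the bound of fraction 3, and fraction 6 held 52.8% of its summed horizontal level. Its straight-line change was 5.65 ± 1.38 (SE, log2; position adjusted p = 0.0489, and 0.0259 for this term alone), and was 3.26 with values raised to the background bound and 1.37 with normexp background correction. Sp9 was not well above background in fraction 1 and was -4.39, -2.68, -1.81, -1.93 and -3.19 in fractions 2 to 6. It was thus highest in fraction 4, at least 6.33-fold above the bound of fraction 1 (position adjusted p = 0.0175). Its straight-line change was 3.04 ± 0.69 (SE, log2; adjusted p of this term alone = 0.0208) and its quadratic term -9.22 ± 2.36 (SE, log2; adjusted p of this term alone = 0.132). The straight-line change of Sp9 was 0.74 with normexp background correction, where position did not pass (position adjusted p = 0.154), 2.09 with values raised to the background bound and 1.58 without horizontal fraction 1. Leaving out 1 array at a time, the Sp9 call held in 20 of 22 fits, being lost without horizontal fraction 1 (adjusted p = 0.0957) or 5 (adjusted p = 0.0534), and that of Nkx2-1 in 6 of 22. With values raised to the background bound neither held (adjusted p = 0.0552 for Sp9 and 0.0566 for Nkx2-1), and among the arrays with a spike-in slope in range, which leave horizontal fractions 4 to 6, the fitted slope of Sp9 was negative (position adjusted p = 0.999).

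The other 5 genes did not pass in the horizontal series, with adjusted p-values from 0.0972 for Sp8 to 0.687 for Dlx2. Sp8 was -1.30, -1.21, 0.31, 1.28, 0.98 and -0.48 in fractions 1 to 6, a span of 5.96-fold with its highest value in fraction 4, as for Sp9. Dlx1 was -0.28, -0.26, 0.31, 1.01, 0.90 and 0.42, and Dlx2 was -0.05, -0.13, 1.08, 1.19, 0.87 and 0.37. Both were well above background throughout and spanned 2.44-fold and 2.49-fold. Dlx5 ranged from -2.45 in fraction 2 to -0.94 in fraction 4, and Dlx6 from -2.82 in fraction 1 to -1.62 in fraction 6. Against Nkx2-1 the horizontal straight-line change was lower for all 6 genes, from -4.90 ± 1.58 (SE, log2) for Dlx2 to -2.61 ± 1.26 for Sp9, at adjusted p-values of 0.00850 to 0.0189 in the F test, which 95.4% of all probes passed. With values raised to the background bound these differences ran from -2.52 ± 1.04 (SE, log2) for Dlx2 to -1.17 ± 0.78 for Sp9. The F test also holds the quadratic term, whose difference as measured ran from -4.43 ± 4.16 (SE, log2) for Dlx5 to -13.66 ± 4.32 for Sp9.

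**Figure D3:**
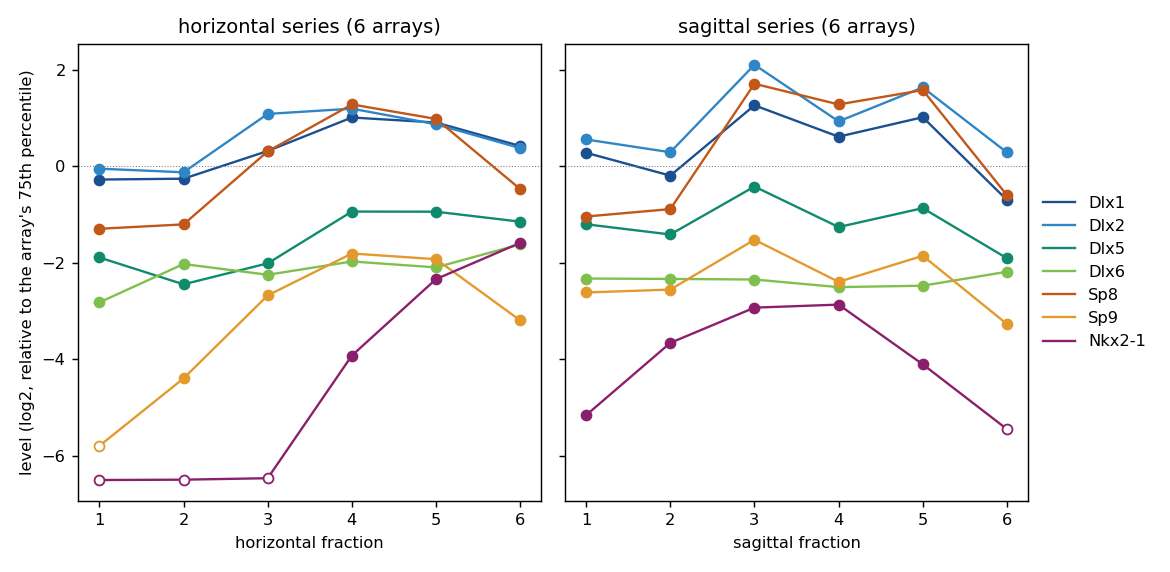
Level of each gene (log2, relative to the array's 75th percentile) against horizontal fraction (left) and sagittal fraction (right), 1 array per fraction, with open points not well above background. Nkx2-1 climbs to horizontal fraction 6, and in the sagittal series Dlx1, Dlx2, Dlx5, Sp8 and Sp9 have high points in fractions 3 and 5 on either side of a lower fraction 4.

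In the sagittal series, cut from side to side, none of the 7 genes passed for the linear term (10.2% of all probes passed) or for the quadratic term (0.0303% passed). In the same limma fits 0 of 7 had an unadjusted p under 0.05 for the linear term, and 1, Sp8, did for the quadratic term, against 9526 and 5859 of all 39621 probes. Dlx1 was 0.28, -0.20, 1.26, 0.61, 1.01 and -0.70 in fractions 1 to 6. Dlx2 was 0.55, 0.29, 2.10, 0.93, 1.63 and 0.28. Sp8 was -1.04, -0.89, 1.71, 1.28, 1.57 and -0.60. All 3, and Dlx5 (-0.42 in fraction 3) and Sp9 (-1.52 in fraction 3) with them, were highest in fraction 3, second highest in fraction 5 and lower in fraction 4 between them. The other RefSeq probe of Sp8 did not have this shape, at -2.73, -2.69, -2.74, -2.73, -0.96 and -3.82 in fractions 1 to 6, and was highest in fraction 5 alone. Fraction 4 was the highest for 4 of the 5 olfactory bulb projection neuron markers. Nkx2-1 was -5.16, -3.66, -2.93, -2.87, -4.10 and -5.45 and was thus highest in fractions 3 and 4, which differed by 0.06 on the log2 scale. In fraction 1 of this series 1 of its 10 spots was well above background, and in fraction 6 none was. Dlx6 was nearly level, with a span of 0.32 on the log2 scale. A curve with linear and quadratic terms cannot follow a dip between 2 high fractions, and the dip rests on 1 array. Fraction 3, where Dlx1, Dlx2, Dlx5, Sp8 and Sp9 were highest, had a spike-in slope out of range (0.823). The slopes of fractions 4 and 5 were in range (1.016 and 1.000), and the part of this in the shape was not tested.

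Pearson's r between the levels of the genes was computed over the 22 fractions, in which the genes share their arrays and which come from 3 mice. Over the 15 pairs of the 6 genes other than Nkx2-1 it ranged from 0.68 (Dlx6 and Sp9) to 0.99 (Dlx1 and Dlx2), with a median of 0.87. The linked pair Dlx5 and Dlx6 had an r of 0.88 and the pair Sp8 and Sp9 an r of 0.90. The 6 pairs with Nkx2-1 ranged from 0.39 to 0.59, with a median of 0.53. Within the 10 coronal fractions the medians were 0.89 and 0.54. Within the 6 horizontal fractions the lowest r of the 15 pairs was 0.27 (Dlx2 and Dlx6), and within the 6 sagittal fractions Dlx6 had negative r with the other 5 genes, from -0.71 to -0.48. Over the 15 arrays whose spike-in slope was in range they were 0.91 and 0.42.

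**Figure D4:**
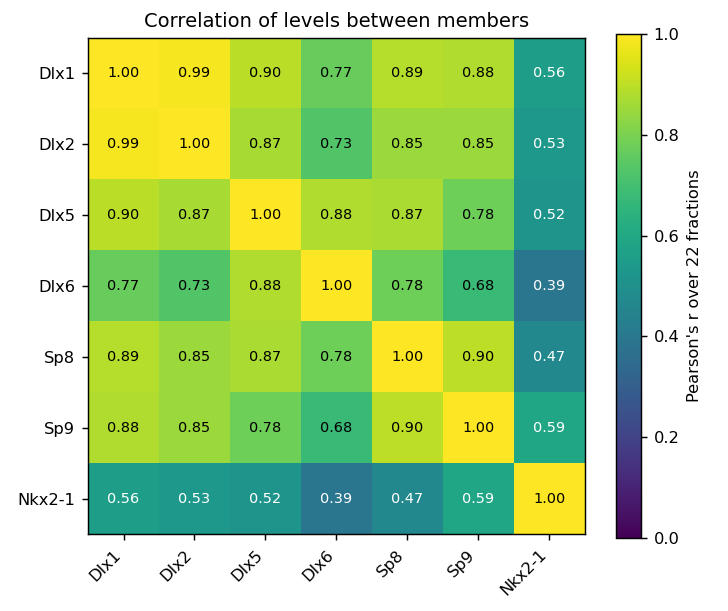
Pearson's r of the levels of each pair of the 7 genes over 22 fractions, on a colour scale from 0 to 1. The row of Nkx2-1 lies between 0.39 and 0.59, and all other pairs lie at 0.68 or above.

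Among 16690 other genes tested, those with the most similar course included other genes of the set and a transcript antisense to one of them. Dlx1 and Dlx2 were each other's nearest gene (r = 0.985). Dlx6os1, also called Evf2, the long non-coding RNA antisense to Dlx6, was among the 5 nearest of 4 genes (Dlx1, Dlx2, Dlx5 and Sp8). Prok2, a secreted ligand that attracts neuroblasts to the olfactory bulb, was among the nearest of Dlx5 (r = 0.877) and Dlx6 (r = 0.864). Vax1, a homeobox gene of the ventral forebrain, was among those of Sp8 (r = 0.881). The gene nearest to Sp9 was Ctnnb1, which encodes beta-catenin (r = 0.915). None of the 5 genes nearest to Nkx2-1 was near another of the 7. They were Isl1, a LIM-homeobox factor of striatal and hypothalamic neurons (r = 0.889), Cables1 (r = 0.851), Fezf1 (r = 0.827), Fsip1 (r = 0.825) and Pdzd3 (r = 0.825), and Fezf1 was well above background on 8 of the 22 arrays. Of the 35 places in these lists, 10 were held by other genes of the set.

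Antisense transcripts of the Dlx genes rose with them. The protein-coding neighbours of Dlx1, Dlx6 and Sp9 outside the set that were tested did not pass, where 19.8% of all probes passed, so not passing is what most probes did. Dlx6os1, not well above background in the first 3 coronal fractions, rose to 2.12 in fraction 10, at least 139.5-fold, with a straight-line change of 8.59 ± 0.65 (SE, log2; position adjusted p = 6.81e-05). Dlx1as, the antisense transcript of Dlx1, was highest in fraction 10 at -1.95 and changed by 4.80 ± 0.69 (SE, log2; position adjusted p = 0.00167). It was not well above background in fractions 1 to 4. Dlx6os2, another non-coding neighbour of Dlx6, passed for position (adjusted p = 0.0254) with a straight-line change of 0.63 ± 0.27 (SE, log2) and was highest in fraction 9. Dlx3 and Dlx4, family members of epithelia and skeleton, did not pass (adjusted p = 0.124 and 0.125). Dlx3 was well above background on all 22 arrays and highest in fraction 10 at 2.71, with a straight-line change of 1.23 ± 0.48 (SE, log2). Dlx4 was highest in fraction 3, with a change of -1.53 ± 0.72. Of the protein-coding genes within 100 kb of the members by the RefSeq gene order, Hat1 (adjusted p = 0.130) and Metap1d (0.0964) beside Dlx1, Sdhaf3 (0.475) beside Dlx6, and Ola1 (0.174), Cir1 (0.553) and Scrn3 (0.0665) beside Sp9 did not pass in the coronal series, and Gpr155, beside Sp9, was not tested. Nkx2-9, beside Nkx2-1, was highest in fraction 1 and fell by 3.06 ± 0.79 (SE, log2; position adjusted p = 0.0174), with an r of -0.13 to Nkx2-1. It was well above background on 6 of the 22 arrays, so its fall and this r rest mostly on background values.

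Genes around the cascade were read from 6 further lists, in which genes past the test of position are counted as rising or falling by the sign of the linear term. Along the coronal series 12.4% of all probes passed with a rising linear term and 7.43% with a falling one, and the median straight-line change of all probes was -0.14 (log2). Of 7 upstream progenitor factors tested, 3 rose and 3 fell, with a median change of -0.48. Gsx2, a ventral homeobox factor upstream of Dlx, rose by 2.66 ± 0.73 (SE, log2; position adjusted p = 0.0472). Shh was not tested, being well above background on 7 of 22 arrays. Of 9 Dlx-dependent genes and GABA enzymes tested, 4 rose and 1 fell, with a median change of 0.86. Gad1, a GABA-synthesising enzyme, rose by 1.81 ± 0.36 (SE, log2; position adjusted p = 0.0116), and Gad2, the other, passed for position (adjusted p = 0.0467) with a change of 1.33 ± 0.43, whose linear term alone did not pass (adjusted p = 0.0578). Slc32a1, the vesicular GABA transporter, had a change of 0.76 ± 0.41 (position adjusted p = 0.198). Gad2 and Slc32a1 were highest in fraction 7, not 10.

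Of 8 Nkx2-1-dependent and medial eminence genes, 4 rose and none fell, with a median change of 0.74. Lhx8, a LIM-homeobox factor of cholinergic and ventral forebrain neurons, rose by 7.39 ± 1.94 (SE, log2; position adjusted p = 0.0312) and was highest in fraction 8. Lhx6, the LIM-homeobox factor directly below Nkx2-1 in interneurons, did not pass (-2.12 ± 1.26; position adjusted p = 0.187), and its probe was highest in fraction 2. That probe was also highest in horizontal fraction 2 and sagittal fraction 1. All of these arrays had a spike-in slope out of range (0.815, 0.818 and 0.773), and the part of this in the course of Lhx6 was not tested. Of 10 caudal eminence and olfactory bulb interneuron factors, a list that holds Sp8 too, 4 rose and 2 fell, with a median change of -0.08. Meis2, a TALE-homeodomain factor, rose by 2.64 ± 0.43 (SE, log2; position adjusted p = 0.00238) and Prokr2, the receptor of Prok2, by 3.45 ± 0.95 (position adjusted p = 0.0354), both highest in fraction 10, while Pax6, a paired-box factor, fell by 2.86 ± 0.76 (position adjusted p = 0.00882). Of 10 mature interneuron genes 3 rose and 2 fell, with a median change of 1.59. Npy, the neuropeptide Y gene, rose by 3.28 ± 0.65 (SE, log2; position adjusted p = 0.0100), Pvalb, the parvalbumin gene, fell by 4.39 ± 0.90 (position adjusted p = 0.0120), and Th, the dopamine enzyme of periglomerular and other neurons, was highest in fraction 10 at 4.54 but did not pass (adjusted p = 0.278). Of 8 migrating neuroblast genes, 6 rose and 1 fell, with a median change of 1.24. Dcx, the doublecortin gene of migrating neurons, rose by 1.24 ± 0.30 (SE, log2; position adjusted p = 0.0154) and was highest in fraction 10.

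**Figure D5:**
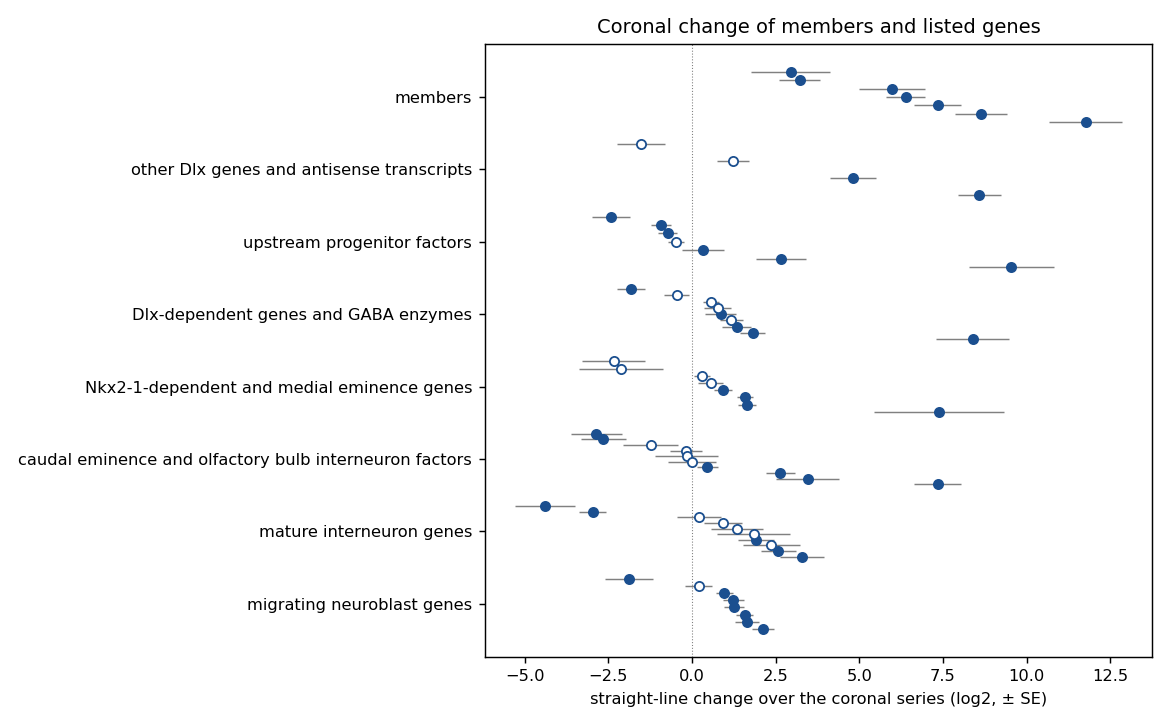
Straight-line change over the coronal series (log2, with SE as bars) for each gene tested in 8 lists, with filled points past the threshold for coronal position. The 7 genes lie between 2.94 and 11.76, and in the other lists Dlx1as, Dlx6os1, Lhx8, Prokr2 and Npy are among the genes in that range, beside Sp8, which 1 list repeats.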

How the data were processed

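RNA was hybridised in 1 colour (Cy3) to Agilent SurePrint G3 Mouse arrays. Per the file headers, the authors extracted spots with Feature Extraction 10.10.1.1, and the processed intensity of a spot has the background subtracted and is linear. A log2 table was deposited too, and 99.899% of its values lay within 0.02 of log2 intensity minus the array's 75th percentile, over 47478 matched rows. Control and outlier spots (131 to 187 outliers per array) were left out, spots of a probe were averaged, and the same scaling was applied. A probe counts as well above background where Feature Extraction so marked at least 1 of its spots. Where it did not, a level is only a bound, and folds were computed against the lowest signal well above background on that array, or the probe's own if higher.

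Probes well above background in at least 1 fraction of each series (39621) were fitted with limma 3.58.1 in R 4.3.3 over the 22 arrays. Each series had its own mean and its own slope and curvature in slab position (13 residual degrees of freedom), and adjusted by Benjamini-Hochberg. Genes described as rising or falling passed the joint test and have that sign of the linear term. The comparison with Nkx2-1 used a plain F test, chosen after seeing the data because the subtracted probe gives all probes a shared residual, and limma's moderation then set one variance for all of them. On simulated data 200 of 39621 probes were changed along the coronal series. There, 70% of changes of 3 and 86% of changes of 6 (log2) were called, beside 10 of 39421 unchanged probes. Whether these rates hold for the measured arrays, where 19.8% of all probes passed for coronal position, was not tested. Tables were handled in Python 3.11.15 with pandas 2.3.3. Symbols came from RefSeq tables of another assembly than the array's, used for names and gene order. The genes, lists and tests were chosen with earlier results of these data known. Named beside them were the 5 genes nearest to each by r, and list genes past the threshold with a wide range or a direct relation to the 7. The normexp alternative used median spot and background signals. A few of the genes that this rule names are counted but not reported here. Probes of long non-coding RNA intervals near the genes were not analysed here.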

Additional observations from a re-analysis of the deposited data

How the results depend on the processing

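The number of the 7 genes past the threshold for coronal position was 7. It was 6 with normexp background correction (23.2% of all probes passed), raised values (18.9%), the spike-in as covariate (11.4%), a linear term only (7.12%) or slide as a block (4.03%), and 5 without pooled slabs (10.3%). It was 1 among probes well above background on all arrays, where Sp8 was the only one testable and 32.8% of all probes passed, and 4 in fits of the coronal arrays alone (1.6% of all probes) and of the 7 arrays of slide 1 alone (4018 of 39621 probes). Leaving out 1 array at a time it was 6 to 7. Nkx2-1 was the gene lost most often (adjusted p up to 0.270, with a linear term only), and on slide 1 alone its quadratic term changed sign (position adjusted p = 0.106). For horizontal position the number was 2. It was 1 with normexp background correction (5.16% of all probes), without the filter on dim probes (2.67%) and without pooled slabs (3.92%). It was 0 with values raised to the background bound (6.31%). It was 0 too among probes well above background on all arrays (16.1%), where Sp8, which had not passed before either, was the only one testable. That 0 says nothing about Sp9 and Nkx2-1. It was also 0 where few or no probes passed at all, so that the 0 says nothing about the 7 genes, namely with a linear term only (0.52%), with the spike-in as covariate (0.255%), among arrays with the spike-in slope in range (0.0328%, where the linear term of Sp9 turned negative, position adjusted p = 0.999) and in limma fits of the horizontal arrays alone (0 of 39621 probes, with 10614 at an unadjusted p under 0.05). Leaving out 1 array at a time it was 0 to 2, and without horizontal fraction 1 only 9 of 39621 probes passed. The causes were not tested. Dlx1, Dlx2, Sp8 and Sp9 kept their coronal calls and direction under every alternative that could test them (adjusted p up to 0.0468). No gene passed in the sagittal series under any, but there few or no probes passed in many settings, which then say nothing about the 7 genes. For the linear term 0 of 39621 probes passed in the sagittal arrays alone, without pooled slabs and without sagittal fraction 6. For the quadratic term 0.0303% of all probes passed in the main fit and at most 2.29%, with normexp background correction. Reading Sp8 from its other probe changed no count of the 7 genes past the threshold. Unadjusted counts did change with it. For the sagittal quadratic term 5858 and not 5859 of all probes had an unadjusted p under 0.05, and for horizontal position 15040 and not 15041. The moderated test of the difference from Nkx2-1 also called all 6 other genes (adjusted p up to 0.00403 coronal and 0.0301 horizontal), and with values raised to the background bound it missed Dlx5 in the horizontal series (adjusted p = 0.102). The median r of the 21 pairs was 0.781. Dim values of Nkx2-1, Sp9 and Dlx1as limit what their courses can show. No paired analysis was possible because the series are fractions of different mice along different axes and fraction numbers do not match between them.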
